A study of Mus musculus with 36 samples.

Results

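The genes described here are 28 genes of cholesterol synthesis and sterol homeostasis, followed while brown pre-adipocytes differentiated. They were taken as a named list, by what their products do and not by any measured value, from the 55536 genes listed in the count tables. Of the 28 genes, 18 encode enzymes of the synthesis pathway, 4 encode the sensing machinery, 3 encode proteins that carry sterol within the cell, and 3 encode targets of the liver X receptors (LXR), the last group holding the exporters Abca1 and Abcg1. All 28 passed the filter on low counts, which left 16723 genes for testing.

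The cells were a mouse brown pre-adipocyte line in which CRISPR/Cas9 had disrupted Rxra, the gene of the retinoid X receptor alpha, a partner of many nuclear receptors. Every library came from one of 2 Rxra-/- clones, numbered 48 and 66, into which a pBabe Hygro retrovirus had brought back either wild-type mouse Rxra (RxraWT) or the S22A form, whose serine 22 was exchanged for alanine so that it could not be phosphorylated there (RxraSA). RNA was sequenced at day 0 (confluent pre-adipocytes), day 2 and day 6. The medium held insulin and triiodothyronine throughout, and from day 0 to day 2 also dexamethasone, isobutylmethylxanthine and indomethacin. With 3 replicates for each of the 12 combinations of clone, Rxra form and day, there were 36 libraries. Neither cells with an intact Rxra nor Rxra-/- cells without the virus were among them. All libraries of clone 48 were labelled library pool 1 and all of clone 66 pool 2, so clone and pool cannot be told apart. The series calls the 3 replicates technical and the clones biological replicates. The p-values within and between clones below therefore measure the spread between libraries of a clone. Those over both clones come from a fit in which the clones share each change, so their spread also holds differences between the clones in that change.

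Cells make cholesterol from acetyl-CoA. The mevalonate arm builds isoprene units and joins them into farnesyl diphosphate, which also feeds other products such as prenyl groups and ubiquinone, and the sterol arm turns farnesyl diphosphate into squalene, closes the rings to lanosterol and trims lanosterol to cholesterol. Transcription of most of these enzymes is driven by SREBP2, the product of Srebf2, which Scap escorts out of the endoplasmic reticulum when sterol is scarce and which the Insig proteins hold back when it is plentiful. Surplus sterol gives rise to oxysterols, which activate the LXR partners of RXR and raise the exporters Abca1 and Abcg1. In adipocytes much of the free cholesterol of the cell lies at the surface of the lipid droplet.

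Library totals ran from 11351078 to 24349263 assigned read pairs. Rxra itself, counted from the edited locus and the retrovirus together, measured 105 to 233 CPM (median 166) in RxraWT and 92.6 to 189.7 CPM (median 170.2) in RxraSA libraries at day 0, and gene counts cannot show the S22A exchange. Rxra also moved with the days: at day 2 it measured 399.5 to 712 CPM (median 570.0) in RxraWT and 419.5 to 621 CPM (median 555) in RxraSA, without overlap with day 0, and at day 6 187 to 347 CPM (median 236) and 182 to 338 CPM (median 244). Its part in the day changes below was not tested. The adipocyte genes listed as markers changed with the days: their summed level was 109 to 256 CPM at day 0, 2820 to 5300 CPM at day 2 and 5430 to 9530 CPM at day 6, and the 8 of 10 that passed the filter were all higher at day 6 than at day 0. The brown fat markers Ucp1 and Prdm16 did not exceed 0.307 and 1.19 CPM in any library, Cidea did not exceed 1.66 CPM, and Ebf2 was at 16.9 to 78.8 CPM in clone 48 but 0.143 to 1.4 CPM in clone 66. Of 5 pre-adipocyte or fibroblast markers, Dlk1 and Thy1 stayed at or near 0 and Pdgfra, Pdgfrb and Col1a1 were lower at day 6 than at day 0. Of 5 macrophage markers, Adgre1, Ptprc and Itgam were at 0 to 0.065 CPM throughout, Csf1r did not exceed 1.02 CPM, and Cd68 was at 2.43 to 11.3 CPM. Of 4 endothelial markers none exceeded 0.818 CPM. Des, of the 4 muscle markers, rose to 14.2 to 29.9 CPM at day 6, while Myod1, Myog and Myf5 stayed at or under 0.227 CPM. The RxraSA library of clone 48, day 0, replicate 1 stood apart, with the lowest total and 28100 CPM of Lars2, a gene that collects ribosomal RNA reads in such libraries, against 8.70 to 1770 CPM in the other day 0 libraries. In bulk samples a change in the share of differentiated cells and a change in RNA per cell cannot be told apart.

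Short windows just before the start of 5 genes are printed because the first 4 genes share a pattern of letters yet moved in opposite directions, and because Abca1 showed the largest change of the 28. They come from RefSeq (GRCm38.p6), read 5′ to 3′ on the strand of the gene, and end at the annotated start of transcription or, where the annotation used for counting starts the gene further upstream, at that start. Capitals mark 3 kinds of letters: TCACNNCA, which covers the sterol regulatory element TCACNCCAC and its looser forms, CCAAT on either strand (ATTGG on the printed one), and TGACCNNNNNTAACC, the letters of a direct repeat to which RXR and LXR bind in pairs. Hmgcs1 lies on the plus strand (chr13:119690101-119690350), and Cyp51 (chr5:4104747-4104947), Hsd17b7 (chr1:169969242-169969455), Sc5d (chr9:42264301-42264550) and Abca1 (chr4:53159896-53160145) lie on the minus strand.
Hmgcs1: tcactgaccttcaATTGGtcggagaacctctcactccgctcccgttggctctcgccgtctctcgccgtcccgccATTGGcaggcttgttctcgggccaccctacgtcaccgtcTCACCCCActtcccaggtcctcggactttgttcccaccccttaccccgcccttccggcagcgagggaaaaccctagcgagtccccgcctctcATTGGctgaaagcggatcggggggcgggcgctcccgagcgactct
Cyp51: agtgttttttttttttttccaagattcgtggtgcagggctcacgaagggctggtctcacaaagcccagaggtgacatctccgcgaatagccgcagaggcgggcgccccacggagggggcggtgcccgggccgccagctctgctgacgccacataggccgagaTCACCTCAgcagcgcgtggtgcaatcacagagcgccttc
Hsd17b7: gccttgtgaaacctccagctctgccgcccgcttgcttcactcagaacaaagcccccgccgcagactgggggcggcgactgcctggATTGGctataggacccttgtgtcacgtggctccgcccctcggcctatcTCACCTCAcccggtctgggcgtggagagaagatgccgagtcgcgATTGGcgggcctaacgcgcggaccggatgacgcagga
Sc5d: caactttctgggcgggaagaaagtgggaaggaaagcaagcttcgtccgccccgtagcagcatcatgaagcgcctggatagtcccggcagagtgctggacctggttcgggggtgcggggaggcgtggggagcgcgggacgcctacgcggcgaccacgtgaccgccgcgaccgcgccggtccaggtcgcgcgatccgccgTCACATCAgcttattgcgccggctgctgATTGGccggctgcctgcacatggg
Abca1: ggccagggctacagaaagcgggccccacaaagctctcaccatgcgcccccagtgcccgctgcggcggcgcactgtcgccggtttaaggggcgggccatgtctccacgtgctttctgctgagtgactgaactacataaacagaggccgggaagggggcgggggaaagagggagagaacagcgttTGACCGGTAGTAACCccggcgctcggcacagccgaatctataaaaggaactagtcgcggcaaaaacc

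RefSeq windows were at hand for 22 of the 28 genes, and each was searched over the 250 bases before the start on both strands. Abcg1, Fdft1, Fdps, Npc1, Sqle and Stard4 had no window. TCACNCCAC was found for Hmgcs1 alone of the 22, 137 bases before its start, and in 1.05% of all 32851 windows. The 22 genes had 28 windows, some genes having more than 1. The looser TCACNNCA was found in 10 of these 28 windows, against 11.4% of all windows. They belong to 9 genes: Cyp51, Dhcr7, Hmgcs1, Hsd17b7, Insig2, Msmo1, Pmvk, Sc5d and Srebf2. These letters were chosen after the sequences had been read, and a match to TCACNCCAC is also a match to TCACNNCA. CCAAT was found for 19 of the 22 genes, in 19 of their 28 windows, against 33.8% of all windows. The RXR and LXR repeat was found for Abca1 alone, 67 bases before its start, and in 0.0457% of all windows. Hmgcs1, Cyp51 and Hsd17b7, which rose at day 2, and Sc5d, which fell, share the TCACNNCA letters. A match describes the letters of these windows and not binding.

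Per kilobase of exon, the most abundant of the 28 transcripts at day 0 were Insig1 (106 ± 21.3 RPKM, SD, n = 12), Hmgcs1 (93.2 ± 19.4 RPKM) and Cyp51 (92.4 ± 22.3 RPKM), 3 genes whose levels did not differ beyond their spread. At the low end were Dhcr7 (2.14 ± 1.07 RPKM), Abcg1 (1.62 ± 0.251 RPKM) and Abca1 (0.131 ± 0.0570 RPKM), in that order. By day 6 Abca1 stood at 30.7 ± 6.34 RPKM and Abcg1 at 13.6 ± 2.7 RPKM, so that Abca1 lay within the spread of Sqle (30.2 ± 9.16 RPKM) and Lss (28.6 ± 7.25 RPKM), and Idi1 (3.36 ± 0.747 RPKM) was the lowest of the 28. All other levels below are CPM, counts scaled to library size after TMM, and are compared only between libraries for 1 gene at a time.

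**Figure D1:**
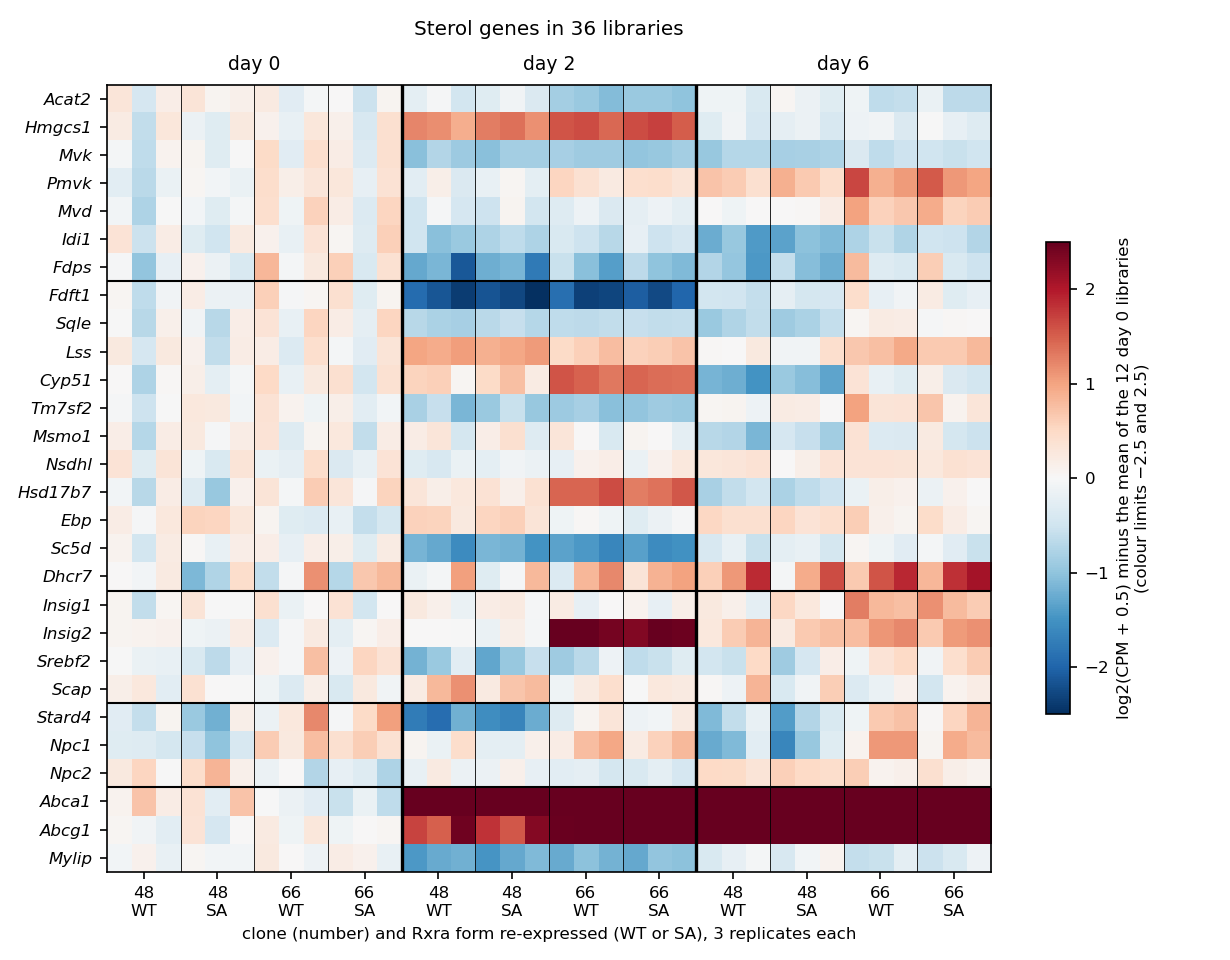
Each cell is the log2(CPM + 0.5) of 1 gene (rows, grouped by role) in 1 of the 36 libraries (columns, by day, clone and Rxra form, replicates side by side) minus the mean of the 12 libraries of day 0, with colours limited to -2.5 and 2.5. Abca1 and Abcg1 leave day 0 in every library, Hmgcs1 is high at day 2 alone, and Insig2 reaches its highest levels at day 2 in the 6 libraries of clone 66.

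The first question was how the pathway changed as the cells differentiated. From day 0 to day 2, 8 of the 28 genes were higher and 12 were lower at an adjusted p under 0.05. The test was the edgeR quasi-likelihood test, with Benjamini-Hochberg adjustment over all genes tested. Of all genes tested, 35.8% were higher and 37.5% lower, so changes in both directions were not particular to the 28. By at least 2-fold, 4 were higher and 4 were lower, where the shares of all genes were 13.0% and 18.4%. From day 2 to day 6, 18 genes were higher and 8 lower against 31.9% and 30.1% of all genes, and 4 were higher and 3 lower by at least 2-fold against 13.4% and 5.92%. Over the whole course, day 6 against day 0, 12 were higher and 12 lower against 32.9% and 35.4%. By at least 2-fold, 3 genes, Dhcr7, Abca1 and Abcg1, were higher and none was lower, against 12.9% and 13.5% of all genes. The median log2 fold change of the 18 enzymes was -0.20 from day 0 to day 2 (all genes -0.015), 0.31 from day 2 to day 6 (all genes 0.012) and -0.26 over the whole course (all genes -0.034). The median size of the change, whatever its sign, was 0.743, 0.687 and 0.364 on the log2 scale for the enzymes against 0.615, 0.428 and 0.495 for all genes. These counts depend on the scaling. Without TMM, by library size alone, the centre of all genes (median log2 fold change) moved to -0.27 and -0.22 for day 2 and day 6 against day 0, the split at day 2 was 7 higher and 14 lower, and that at day 6 was 5 higher and 13 lower, with no called gene changing direction.

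**Figure D2:**
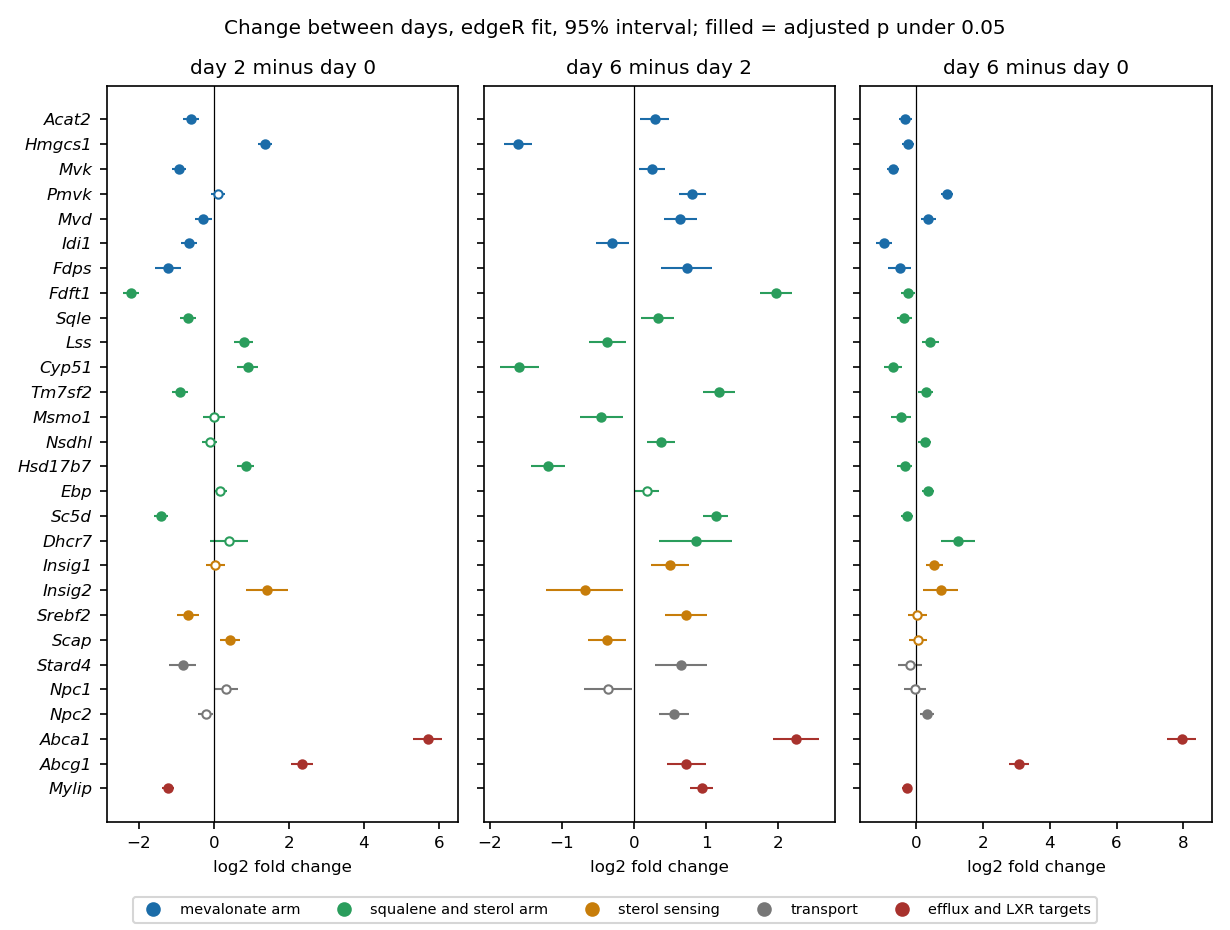
Points are log2 fold changes of the 28 genes (rows, coloured by role) for day 2 against day 0, day 6 against day 2 and day 6 against day 0, with 95% intervals from the edgeR fit and filled where the adjusted p was under 0.05. Hmgcs1 and Fdft1 stand on opposite sides of 0 in each of the first 2 panels, at 1.36 and -2.21 and then at -1.60 and 1.97, while in the third panel every enzyme but Dhcr7 lies within 1 of 0.

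In the mevalonate arm, Hmgcs1 rose at day 2 while 5 of the other 6 genes fell. It encodes the cytosolic HMG-CoA synthase, which makes the precursor of mevalonate. In clone 48 it measured 274 to 509 CPM (median 431) at day 0, 787 to 1087 CPM (median 957) at day 2 and 312 to 395 CPM (median 350.4) at day 6. In clone 66 it measured 317 to 553 CPM (median 453), 1140.0 to 1371 CPM (median 1268) and 327 to 415 CPM (median 375) on the same days. Every day 2 library of both clones lay above every library of day 0 and day 6. The rise to day 2 was 2.56-fold (log2 fold change ± SE 1.36 ± 0.10, adjusted p = 8.97e-15) and the fall from day 2 to day 6 was 3.04-fold (-1.60 ± 0.10, adjusted p = 3.13e-16), which left Hmgcs1 slightly under its day 0 level (-0.25 ± 0.094, adjusted p = 0.0205). This last call was lost without replicate 1 or 3 of clone 48, without replicate 3 of clone 66 and with no filter on low counts. About 12.1% of its exon bases are shared with the annotated gene Gm48342, where reads may have been lost or misassigned.

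Of the other 6 genes of this arm, 5 fell from day 0 to day 2. The largest fall was that of Fdps, farnesyl diphosphate synthase, which closes the arm: from 41.0 to 145 CPM (median 79.5) over the 12 libraries of day 0 to 18.4 to 55.1 CPM (median 36.6) at day 2, a 2.33-fold decrease (-1.22 ± 0.17, adjusted p = 1.18e-07). Its levels overlapped between the days, and 26.7% of its exon bases are shared with Gm43738. Mvk, mevalonate kinase, went from 47.2 to 103 CPM (median 75.1) to 35.5 to 44.1 CPM (median 39.7) without overlap (-0.94 ± 0.089, adjusted p = 2.09e-11) and was still 1.61-fold under day 0 at day 6 (-0.69 ± 0.089, adjusted p = 2.22e-08). Idi1, the isomerase that makes the second isoprene unit, fell at both steps, from 15.1 to 33.5 CPM (median 23.2) through 10.4 to 19.1 CPM (median 14.6) to 7.94 to 15.4 CPM (median 11.9), and ended 1.96-fold lower (-0.97 ± 0.11, adjusted p = 1.94e-09). Acat2, the thiolase at the entry of the pathway (-0.61 ± 0.10, adjusted p = 1.7e-06), and Mvd, the decarboxylase (-0.28 ± 0.11, adjusted p = 0.0252), fell less. The call for Mvd was lost in 4 of the 6 fits that left out 1 replicate number of 1 clone, namely replicates 1 and 3 of clone 48 and replicates 1 and 3 of clone 66. Pmvk, phosphomevalonate kinase, did not pass the test at day 2 (0.11 ± 0.092, adjusted p = 0.273) and rose afterwards, from 50.1 to 93.4 CPM (median 73.7) at day 2 to 85.4 to 207 CPM (median 120.4) at day 6 (0.81 ± 0.093, adjusted p = 2.39e-09), the only gene of the arm that ended with a rise near 2-fold (0.92 ± 0.093, adjusted p = 8.74e-11). Mvd also ended above day 0 (0.36 ± 0.11, adjusted p = 0.00461), while Acat2, Hmgcs1, Mvk, Idi1 and Fdps ended below it. The second fall of Idi1 was not called by library size alone, nor without replicate 1 or 3 of clone 48 or replicate 1 of clone 66. The end level of Fdps was not called without replicate 3 of clone 48.

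In the squalene and sterol arm the changes also ran in opposite directions. Fdft1, squalene synthase, which commits farnesyl diphosphate to sterols, showed the largest fall of all 28 genes: clone 48 went from 88.7 to 156 CPM (median 127) at day 0 to 23.8 to 35.8 CPM (median 29.3) at day 2, and clone 66 from 112 to 209 CPM (median 144) to 27.1 to 36.9 CPM (median 30.8). By day 6 it was back at 91.5 to 117 CPM (median 101) in clone 48 and 112 to 186 CPM (median 124) in clone 66. No day 2 library reached the lowest library of another day. The fall was 4.63-fold (-2.21 ± 0.11, adjusted p = 2.98e-19) and the rise 3.92-fold (1.97 ± 0.11, adjusted p = 1.65e-17). Day 6 was 1.18-fold under day 0 (-0.24 ± 0.10, adjusted p = 0.0375). This last call was lost in DESeq2, with RLE size factors, with no filter on low counts and in a fit of the compared days alone. It was also lost without replicate 1 or 3 of clone 48, replicate 3 of clone 66 or the library that stood apart. Sc5d, a sterol desaturase late in the arm, followed the same course, from 78.5 to 124 CPM (median 117) through 34.2 to 48.7 CPM (median 40.4) to 73.3 to 112 CPM (median 89.5), again with no overlap between day 2 and the other days (-1.41 ± 0.087, adjusted p = 2.79e-16 and then 1.13 ± 0.087, adjusted p = 1.84e-13). Tm7sf2, a sterol reductase of the nuclear envelope and endoplasmic reticulum, fell to 12 to 18.5 CPM (median 14.2) from 18.8 to 35.2 CPM (median 26.8) (-0.91 ± 0.11, adjusted p = 4.43e-09) and rose to 25 to 55.5 CPM (median 31.2) (1.18 ± 0.11, adjusted p = 2.01e-11). Sqle, squalene epoxidase, which adds the oxygen that allows ring closure, fell by less (-0.69 ± 0.11, adjusted p = 1.2e-06). About 18.3% of the exon bases of Fdft1 are shared with Ctsb and 12.1% of those of Tm7sf2 with Vps51.

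Cyp51, Hsd17b7 and Lss formed the other side. Cyp51, the demethylase that first trims lanosterol, rose from 231 to 436 CPM (median 392) to 411 to 668 CPM (median 567) in clone 48 and from 290.1 to 558 CPM (median 491) to 993 to 1181 CPM (median 1065) in clone 66, with overlap between the days in clone 48 and none in clone 66. At day 6 it had dropped to 141 to 208 CPM (median 174) and 289 to 500.5 CPM (median 336). Over both clones the rise was 1.86-fold (0.90 ± 0.13, adjusted p = 2.9e-07), the fall 3.01-fold (-1.59 ± 0.14, adjusted p = 2.21e-12), and the end level 1.62-fold under the start (-0.69 ± 0.13, adjusted p = 2.45e-05). Hsd17b7, a ketoreductase of the same trimming steps, went from 35.3 to 106 CPM (median 70.2) to 74.4 to 212 CPM (median 128) and back to 38.7 to 75.7 CPM (median 54.9) (0.84 ± 0.12, adjusted p = 5.51e-08 and then -1.2 ± 0.12, adjusted p = 5.24e-11). Lss, lanosterol synthase, rose from 146 to 300.0 CPM (median 247) to 314 to 469.5 CPM (median 399), every day 2 library lying above every day 0 library (0.79 ± 0.13, adjusted p = 1.1e-06). Its fall to day 6 (-0.37 ± 0.13, adjusted p = 0.0116) was not called without replicate 1, 2 or 3 of clone 48. The low end level of Hsd17b7 (-0.35 ± 0.11, adjusted p = 0.00697) was not called without replicate 1 of clone 48.

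Msmo1, Nsdhl, Ebp and Dhcr7, the other enzymes of the arm, did not pass the test from day 0 to day 2. The 95% intervals of their log2 fold changes were -0.30 to 0.29 for Msmo1, the methylsterol oxidase, -0.31 to 0.079 for Nsdhl, a dehydrogenase, -0.007 to 0.35 for Ebp, the sterol isomerase, and -0.11 to 0.91 for Dhcr7, the reductase that yields cholesterol. Dhcr7 then rose, from 4.86 to 25.2 CPM (median 11.1) at day 0 through 8.68 to 26.4 CPM (median 17.0) to 10.8 to 48.7 CPM (median 29.2), and was the only one of the 18 enzymes to end more than 2-fold away from day 0 (1.25 ± 0.25, adjusted p = 4.23e-05). Its levels overlapped between day 0 and day 6 and it varied most between replicates, with a pooled SD of 0.77 on the log2 scale at day 0. Msmo1 ended lower (-0.46 ± 0.14, adjusted p = 0.00612), and Nsdhl (0.26 ± 0.094, adjusted p = 0.0164) and Ebp (0.35 ± 0.088, adjusted p = 0.000831) ended higher. Taking all 18 enzymes at day 6 against day 0, 7 were higher and 11 lower, and the synthase, epoxidase and desaturase that had fallen at day 2, Fdft1, Sqle and Sc5d, lay at log2 fold changes of -0.24, -0.36 and -0.28. By library size alone Ebp, Lss, Mvd, Nsdhl and Tm7sf2 were no longer called higher at day 6. Leaving out 1 replicate number of 1 clone ended the day 6 calls of Msmo1 and Sc5d (replicate 3 of clone 48), Sqle (replicates 1 and 3 of clone 48), Nsdhl (replicate 2 of clone 48, replicates 1 and 2 of clone 66) and Tm7sf2 (replicates 1 and 3 of clone 66).

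**Figure D3:**
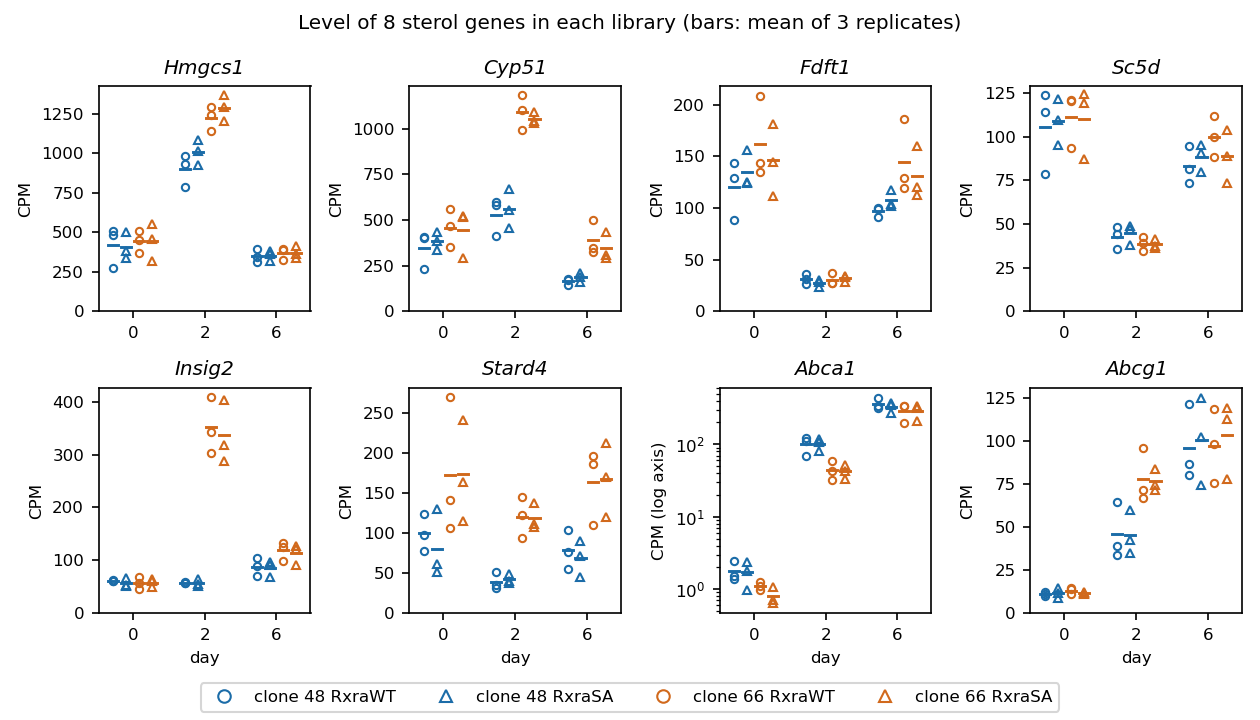
Points are CPM in each library by day for 8 genes, blue for clone 48 and orange for clone 66, circles for RxraWT and triangles for RxraSA, with bars at the mean of 3 replicates and a log axis for Abca1 alone. The 6 clone 66 libraries hold 288 to 408 CPM of Insig2 at day 2 where the 6 clone 48 libraries hold 51.3 to 64.3 CPM, and circles and triangles of a clone lie together at each day.

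Among the genes of sterol sensing, Insig2 stood out for a rise in 1 clone. Insig1 and Insig2 encode the anchors that keep Scap and the SREBPs in the endoplasmic reticulum. At day 0 Insig2 measured 52.0 to 66.1 CPM (median 61.0) in clone 48 and 45.2 to 67.5 CPM (median 58.2) in clone 66. At day 2 it measured 51.3 to 64.3 CPM (median 57.7) in clone 48 and 288 to 408 CPM (median 331) in clone 66. All 6 clone 66 libraries lay above all 6 of clone 48 at day 2, whereas the clones overlapped at day 0. At day 6 it measured 67.5 to 104 CPM (median 90.3) and 91.7 to 134 CPM (median 123). Within clone 66 the change to day 2 was 6.02-fold (2.59 ± 0.13, adjusted p = 2.42e-16) and within clone 48 its log2 fold change was -0.043 ± 0.13, adjusted p = 0.778. The difference between the clones in this change was itself tested and came to 2.63 ± 0.18, adjusted p = 4.03e-11. From day 2 to day 6 Insig2 fell in clone 66 (-1.57 ± 0.13, adjusted p = 1.96e-11) and rose in clone 48 (0.59 ± 0.13, adjusted p = 0.000243), with a difference of -2.16 ± 0.18, adjusted p = 3.66e-09. The values pooled over clones, 1.42 ± 0.27 at day 2 and -0.69 ± 0.26 from day 2 to day 6, describe neither clone. The second was not called without replicate 1, 2 or 3 of clone 66, nor in a fit of the compared days alone. Day 6 was above day 0 in both, by 0.55 ± 0.13 in clone 48 and 1.02 ± 0.13 in clone 66.

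Insig1, itself a classical SREBP target, did not pass the test at day 2 (95% interval -0.22 to 0.30) and rose to day 6 over both clones (0.50 ± 0.13, adjusted p = 0.00109). Within clones, it rose from 279 to 374 CPM (median 334) to 499 to 786 CPM (median 560.5) in clone 66 (0.90 ± 0.15, adjusted p = 1.07e-05), while in clone 48 it measured 286 to 382 CPM (median 361) and 274 to 464 CPM (median 366) (0.066 ± 0.15, adjusted p = 0.743). The difference between the clones was 0.83 ± 0.21, adjusted p = 0.0138. Srebf2 fell to 31.5 to 71.7 CPM (median 49.5) at day 2 from 49.5 to 131 CPM (median 73.9) at day 0 (-0.69 ± 0.14, adjusted p = 5.27e-05), rose by 0.72 ± 0.14 to day 6 (adjusted p = 4.07e-05), and was not called at day 6 against day 0 (95% interval -0.26 to 0.32). Scap, the escort, moved the other way, up to day 2 (0.42 ± 0.13, adjusted p = 0.00418) and down to day 6 (-0.37 ± 0.13, adjusted p = 0.0138), and its day 2 call was lost by library size alone and its day 6 call without replicate 2 of clone 48. Its levels overlapped between all 3 days, and 13.2% of its exon bases are shared with 5830462I19Rik.

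Of the genes of transport within the cell, only Stard4 was called at day 2. Stard4, a carrier that moves sterol between membranes, fell to day 2 (-0.84 ± 0.17, adjusted p = 7.24e-05) and rose again to day 6 (0.65 ± 0.17, adjusted p = 0.00157), within wide and overlapping ranges of 51.0 to 270.1 CPM (median 119.8), 31.1 to 145 CPM (median 72.5) and 44.6 to 212 CPM (median 107). Npc1, which exports cholesterol from late endosomes and lysosomes, was not called in any of the 3 comparisons over both clones, with 95% intervals of -0.008 to 0.65, -0.70 to -0.029 and -0.37 to 0.29. It was called lower from day 2 to day 6 in each of the 3 fits without a replicate of clone 66, and higher at day 2 without replicate 1 of clone 66. Within clone 48 it was called at both steps, higher at day 2 (0.52 ± 0.21, adjusted p = 0.035) and lower from day 2 to day 6 (-0.85 ± 0.21, adjusted p = 0.0014), and within clone 66 at neither (0.10 ± 0.21, adjusted p = 0.718 and 0.12 ± 0.21, adjusted p = 0.681). The difference between clones did not pass the test for either step (adjusted p = 0.519 and 0.0517). Npc2, which hands it cholesterol inside the lysosome, was not called at day 2 (-0.22 ± 0.10, adjusted p = 0.0529) and rose to day 6, from 206 to 331 CPM (median 243) to 300.3 to 429 CPM (median 377) (0.56 ± 0.10, adjusted p = 1.85e-05).

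Of the LXR targets, Abca1 and Abcg1, but not Mylip, gave the largest changes of the 28 genes against day 0. Abca1, which loads cholesterol and phospholipid onto apolipoproteins at the cell surface, measured 0.975 to 2.42 CPM (median 1.66) at day 0 in clone 48, 69.5 to 123 CPM (median 109.6) at day 2 and 273 to 434 CPM (median 341) at day 6. In clone 66 it measured 0.647 to 1.27 CPM (median 1.02), 32.3 to 59.2 CPM (median 42.5) and 197 to 341 CPM (median 325). The days did not overlap in either clone. The rise was 51.9-fold to day 2 (5.70 ± 0.20, adjusted p = 1.73e-23) and 248-fold to day 6 (7.95 ± 0.21, adjusted p = 1.01e-26), from a day 0 level of as few as 14 counts in a library. This is the gene whose window carries the RXR and LXR repeat printed above, and a part of the repeat in the rise was not tested. Abcg1, which passes sterol to mature lipoproteins, went from 8.60 to 14.8 CPM (median 11.8) to 33.6 to 95.7 CPM (median 65.8) and 74.5 to 125 CPM (median 100.2) with no overlap between day 0 and later days (2.35 ± 0.14, adjusted p = 1.08e-16 to day 2 and 3.08 ± 0.14, adjusted p = 1.09e-19 to day 6). Mylip, an LXR-induced ubiquitin ligase that removes lipoprotein receptors, did not rise with them: it fell from 47.6 to 64.5 CPM (median 53.4) to 19.4 to 27.2 CPM (median 22.9) (-1.22 ± 0.08, adjusted p = 1.05e-15), recovered to 35.9 to 57.9 CPM (median 43.8) (0.94 ± 0.08, adjusted p = 2.01e-12), and ended 1.22-fold below day 0 (-0.28 ± 0.078, adjusted p = 0.00188), a value whose sign held under every scaling tried. Macrophages also express Abca1 and Abcg1 strongly. Their 5 markers summed to 4.96 to 11.0 CPM at day 0, 2.77 to 5.85 CPM at day 2 and 5.35 to 11.5 CPM at day 6, nearly all of it Cd68. Cd68, the only one of them that passed the filter, fell to day 2 (-0.87 ± 0.10, adjusted p = 2.94e-09) and rose to day 6 (1.14 ± 0.10, adjusted p = 1.06e-11). It was higher at day 6 than at day 0 (0.27 ± 0.10, adjusted p = 0.0174). Csf1r reached at most 1.02 CPM, and Adgre1, Ptprc and Itgam were at or near 0 throughout. The adipocyte genes rose with both exporters. The part of either set of markers in the result was not tested.

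The 28 genes were called in both clones about as often as all genes at each step, and less often over the whole course. From day 0 to day 2, 20 of the 28 genes were called within clone 48 and 18 within clone 66, against 10928 and 10299 of all 16723 genes tested. Of the 28, 16 (57.1%) were called in both in the same direction, against 52.8% of all genes tested. From day 2 to day 6 the numbers were 20, 19 and 11 (39.3%), against 8553, 8452 and 38.9% for all genes, with Insig2 the only one of the 28 called in opposite directions. For day 6 against day 0 they were 13, 16 and 7, against 47.3%. Of those 7, Pmvk, Dhcr7, Insig2, Abca1 and Abcg1 were higher and Mvk and Idi1 lower in both clones. The lower levels of Cyp51, Sqle, Msmo1, Fdps, Hsd17b7 and Sc5d at day 6 were called in clone 48 and not in clone 66, where their log2 fold changes were -0.30, -0.16, -0.17, -0.26, -0.29 and -0.23. In the other direction, 9 genes were called in clone 66 and not in clone 48. Mvd, Lss, Tm7sf2, Nsdhl and Ebp, the enzymes other than Pmvk and Dhcr7 that ended higher over both clones, were among them, with log2 fold changes of 0.33 to 0.69 in clone 66 and 0.08 to 0.22 in clone 48. Insig1 and Npc2 were also higher in clone 66 alone, and Acat2 and Mylip lower. Mylip lay at -0.45 ± 0.10, adjusted p = 0.000495 in clone 66 and -0.12 ± 0.10, adjusted p = 0.332 in clone 48. The difference between clones from day 0 to day 6 was not tested.

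Of 30 other sterol genes listed beside the 28, 27 passed the filter, and Vldlr, Abcg4 and Cyp7b1 did not. At day 2 against day 0, 10 of the 27 were higher and 9 lower, and at day 6 against day 0, 15 were higher and 6 lower, read against the same background as above, with a median log2 fold change of 0.26 at day 6 where that of all genes was -0.034. The largest rises at day 6 were those of Gramd1b, which draws cholesterol from the plasma membrane to the endoplasmic reticulum, from 5.39 to 12.6 CPM (median 9.13) at day 0 to 53.5 to 142 CPM (median 73.5) at day 6 (3.22 ± 0.12, adjusted p = 1.37e-22), and of Nr1h3, the gene of LXR alpha, from 8.34 to 12.8 CPM (median 9.84) to 57.2 to 110.0 CPM (median 76.6) (2.99 ± 0.098, adjusted p = 4.69e-24). The largest falls were those of Nceh1, a cholesteryl ester hydrolase, from 18.8 to 38.1 CPM (median 27.2) to 2.40 to 5.47 CPM (median 3.96) (-2.82 ± 0.087, adjusted p = 7.45e-25), and of Abca7, a relative of Abca1 (-0.84 ± 0.17, adjusted p = 6.4e-05).

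The second question, the one for which the cells were made, was whether the S22A form of RXR alpha altered these genes. None of the 28 was called between RxraSA and RxraWT at day 0, day 2 or day 6, and none had an unadjusted p under 0.05 on any day. The share of all genes called was 0% on each of the 3 days, with 139, 162 and 125 of 16723 genes at an unadjusted p under 0.05, and DESeq2 called 0 of the 28 as well. The same held for the interactions of Rxra form with the change between days, where 0% of all genes were called for day 2 against day 0, day 6 against day 2 and day 6 against day 0, with 144, 153 and 128 genes at an unadjusted p under 0.05, 0 of the 28 among them. The interaction terms of the 28 ran from -0.17 to 0.22, from -0.16 to 0.091 and from -0.13 to 0.16 in these comparisons. Their intervals were wider, reaching past a 2-fold difference for 3 genes in each. On every day and in every interaction, fewer than a share of 0.05 of the genes tested had an unadjusted p under 0.05. Such a share would be expected without any difference, so this fit was conservative. That none of the 28 was among those genes therefore adds little.

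The log2 fold changes of the 28 between the forms ran from -0.21 to 0.083 at day 0, from -0.19 to 0.12 at day 2 and from -0.13 to 0.11 at day 6. The lowest at day 0 was Abca1, at 0.959 to 2.42 CPM (median 1.33) in RxraWT and 0.647 to 2.40 CPM (median 1.03) in RxraSA (-0.21 ± 0.30, 95% interval -0.81 to 0.39, adjusted p = 1). At day 6, with Abca1 abundant, it measured 197 to 434 CPM (median 338) and 209 to 376 CPM (median 325) (-0.07 ± 0.21, 95% interval -0.50 to 0.36). Npc1 had the lowest value of the 28 at day 2 and day 6, at -0.19 ± 0.23 and -0.13 ± 0.23, after -0.19 ± 0.23 at day 0, each within its error. For Hmgcs1 the 95% intervals were -0.30 to 0.24, -0.16 to 0.39 and -0.26 to 0.28 at day 0, 2 and 6, and for Abcg1 they were -0.43 to 0.36, -0.40 to 0.36 and -0.30 to 0.45. For no gene and no day did the interval reach a 2-fold difference in either direction, the widest being those of Dhcr7 (-0.87 to 0.56 at day 0) and Insig2 (-0.78 to 0.67 at day 0). These intervals come from a fit that does not pair same-numbered libraries of the forms. A smaller difference than the interval of a gene allows was not detectable by that fit, and larger ones could also be missed. In simulated counts with a 2-fold difference between the forms at day 6, that fit called 75 of 100 changed genes. With a 1.5-fold difference it called 45 of 100. The effect of the form did not pass the test of a difference between clones either, with 0% of all genes called on each of the 3 days (283, 214 and 200 genes at an unadjusted p under 0.05, of which 1, 0 and 0 were among the 28, the 1 being Ebp). In this test of a difference between clones, the replicate number as a block, which pairs the forms, gave 3 of the 16723 genes called at day 0. None was called at day 2 or day 6, with 1434, 299 and 469 genes at an unadjusted p under 0.05 on the 3 days, and none of the 28 was called. For the forms themselves, over both clones, the block called no gene on any day, with 263, 206 and 172 genes at an unadjusted p under 0.05.

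**Figure D4:**
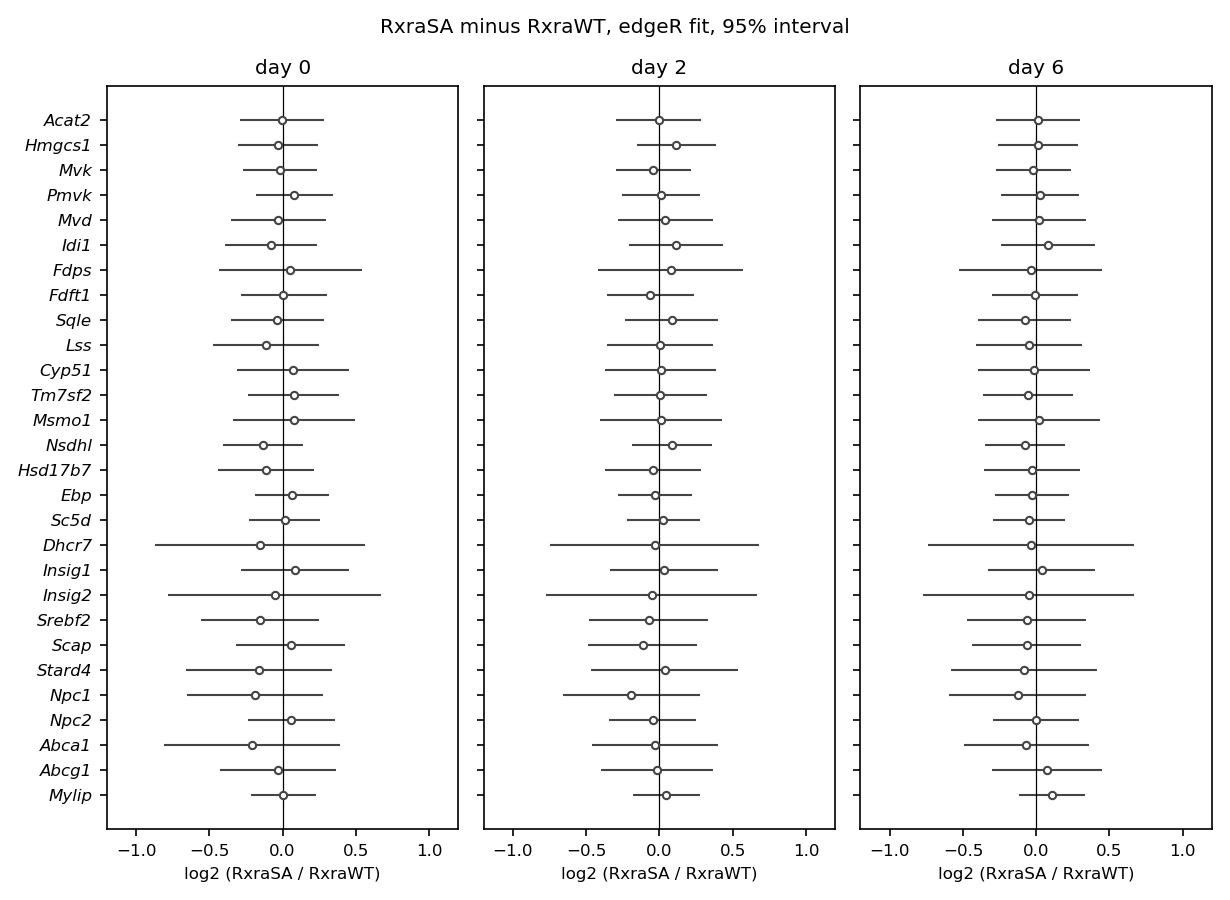
Points are log2 ratios of RxraSA to RxraWT for the 28 genes at day 0, 2 and 6, with 95% intervals from the edgeR fit of 36 libraries, drawn open because none was called. All points lie between -0.21 and 0.12 and all intervals include 0.

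The third comparison was between the 2 clones, which also differ in library pool. Of the 28 genes, 9 differed at day 0 against 23.7% of all genes, 12 at day 2 against 30.0% and 15 at day 6 against 26.2%. At day 6 all 15 were higher in clone 66, while of all genes called 51.2% were higher there. Not every fit gave a split to 1 side. It was 14 higher and 1 lower by library size alone, and 12 and 1 without replicate 1 of clone 48. Without replicate 1 of clone 66 it was 13 and 2. Npc1 and Stard4 were higher in clone 66 on each day, though the call for Npc1 at day 2 was lost without replicate 1 or 2 of clone 48 or replicate 2 or 3 of clone 66. Npc1 measured 42.2 to 68.7 CPM (median 63.5) in clone 48 and 101 to 146 CPM (median 123) in clone 66 at day 0, and 27.3 to 71.1 CPM (median 41.7) and 89.1 to 182 CPM (median 155) at day 6, with no overlap on either day (1.03 ± 0.21, adjusted p = 0.000604 at day 0 and 1.57 ± 0.22, adjusted p = 2.14e-06 at day 6). Stard4 differed by 0.95 ± 0.25, 1.56 ± 0.26 and 1.18 ± 0.25 at day 0, 2 and 6. Of the enzymes, Hsd17b7 was higher in clone 66 on each day, most at day 2 (1.2 ± 0.15, adjusted p = 2.55e-07), and Cyp51 at day 2 and day 6 (0.98 ± 0.17, adjusted p = 3.08e-05 and 1.08 ± 0.17, adjusted p = 1.07e-05). Ebp was lower in clone 66 at day 0 and day 2 (-0.60 ± 0.11 and -0.60 ± 0.11), and so was Abca1 (-0.88 ± 0.26 and -1.22 ± 0.19), whereas at day 6 Abca1 did not pass the test (-0.26 ± 0.19, adjusted p = 0.343). At day 0, 4 of the 9 calls were left without replicate 2 of clone 48, which ended those for Hsd17b7, Mvd, Pmvk, Sqle and Stard4, and 3 were left without replicate 3 of clone 66, which ended those for Abca1, Hsd17b7, Mvd, Pmvk, Sqle and Stard4. The adipocyte marker Adipoq also differed between the clones, with 534 to 1140 CPM at day 2 in clone 48 and 67.5 to 145 CPM in clone 66, and its part in these differences was not tested.

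In the change between days, 1 of the 28 genes, Insig2, differed between clones from day 0 to day 2, against 6.84% of all genes, and 5 differed from day 2 to day 6, against 6.18%. The 5 were Insig2 and Insig1, described above, and Sqle, Lss and Abca1. Sqle rose to day 6 in clone 66 (0.69 ± 0.14, adjusted p = 9.57e-05) and was not called in clone 48 (-0.046 ± 0.14, adjusted p = 0.806), Lss fell in clone 48 (-0.88 ± 0.14, adjusted p = 5.2e-06) and was not called in clone 66 (0.13 ± 0.14, adjusted p = 0.475), and Abca1 rose more in clone 66 (2.73 ± 0.20) than in clone 48 (1.77 ± 0.19). Leaving out 1 replicate number of 1 clone ended the call for Abca1 in 3 of the 6 such fits (replicates 1 and 3 of clone 48, replicate 2 of clone 66), for Insig1 in 2 (replicate 2 of either clone) and for Sqle in 4 (replicate 1 of clone 48, replicates 1, 2 and 3 of clone 66), and for Lss and Insig2 in none. For the change from day 0 to day 2 the number of genes called rose from 1 to 3 without replicate 2 of clone 48 and to 2 without replicate 3 of clone 48.

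The enzymes moved together among replicates of day 0. In the 4 libraries of replicate 2 at day 0, 1 for each clone and Rxra form, 16 to 18 of the 18 enzymes lay under the mean of their group, with a mean log2 deviation of -0.44 to -0.21, while 47.7% to 51.4% of all genes tested lay under it. In these libraries 13 to 18 of the 18 enzymes were the lowest of the 3 replicates, against 25.2% to 37.2% of all genes. In the other 8 libraries of day 0 the mean deviation of the enzymes was 0.052 to 0.27. At day 2 and day 6 the deviations were smaller, from -0.13 to 0.17. The median pooled SD of the enzymes between replicates was 0.37 on the log2 scale at day 0 against 0.28 for all genes, and 0.17 at day 2 against 0.29. Hmgcs1 in RxraWT libraries of clone 48, for example, measured 480.3, 274 and 509 CPM in replicates 1, 2 and 3 at day 0, and in clone 66 450.0, 371 and 511 CPM. Without these 4 libraries, 21 of the 28 genes were called at day 2 against day 0 and 20 at day 6 against day 0, where Lss, Mvd, Nsdhl and Tm7sf2 were no longer called. The cause was not tested.

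**Figure D5:**
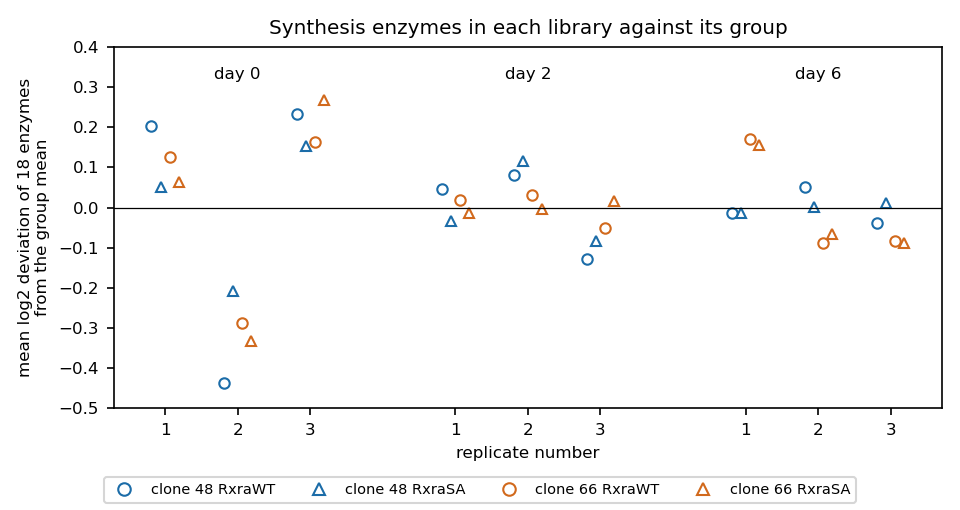
Each point is the mean log2 deviation of the 18 synthesis enzymes in 1 library from the mean of its group of 3 replicates, by day and replicate number, blue for clone 48, orange for clone 66, circles for RxraWT and triangles for RxraSA. The 4 libraries of replicate 2 at day 0 lie at -0.44 to -0.21, under all other libraries.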

How the data were processed

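Stranded total RNA libraries of 36 samples were read as the counts the authors deposited, 1 table per sample with whole-number counts of read pairs per gene, not normalised. Per the study's methods the authors aligned reads to GRCm38.p6 with STAR 2.7.0d and counted pairs over exons of GENCODE M21 genes with featureCounts 1.6.2. No strand setting was stated, so pairs in exons shared by genes on opposite strands may have been lost or misassigned. Totals were 11351078 to 24349263 per library.

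Groups followed the labels. Counts were filtered with filterByExpr, scaled by TMM and fitted with the quasi-likelihood test of edgeR 4.0.16 (R 4.3.3), with Rxra form by day and clone as terms, as in the authors' model. A fit of 12 coefficients, 1 per combination of clone, form and day, gave the values within and between clones. A gene was called at a Benjamini-Hochberg adjusted p under 0.05 over 16723 genes. CPM values used TMM library sizes, and RPKM also used the exon length given in the tables. Figures used log2(CPM + 0.5). The members, the other lists and the tests were chosen with earlier results of these data known. All 28 members are accounted for, and those with the largest changes in each role are described with all values. The letters TCACNNCA and the fits without replicate 2 of day 0, or without the library that stood apart, were chosen after seeing the data.

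The replicate numbers were checked for pairing. Same-numbered RxraWT and RxraSA libraries of a clone and day deviated together (r across 9381 genes 0.18 to 0.93 in 18 pairs, mean 0.71), and those of different days did so in part (-0.33 to 0.88 in 36 pairs, mean 0.39). Pairing was taken to need an r over 0.1 in every pair, which the forms met and the days did not. The main fit nevertheless used no replicate number and so paired neither. The replicate block, run as an alternative, was a term for each clone and replicate number. It was shared by all days and so paired both forms and days. No 2 libraries of a group held identical counts. Alternatives were DESeq2 1.42.0, other scalings and filters, the replicate block and leaving out replicates. The scripts were tested on simulated data. Some sterol genes are not reported here.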

Additional observations from a re-analysis of the deposited data

Results flagged for a closer look

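In 6 cases the change of a gene between days differed between the clones by a test of the difference itself, in the edgeR fit of 12 coefficients with Benjamini-Hochberg adjustment over all genes. From day 0 to day 2 the change of Insig2 was higher in clone 66 than in clone 48 by 2.63 on the log2 scale. From day 2 to day 6 the change of Insig2 was lower in clone 66, with a difference of -2.16, and those of Sqle (0.74), Lss (1.01), Insig1 (0.83) and Abca1 (0.97) were higher in clone 66. Clone and library pool cannot be told apart. Groups of 3 replicates were too small for a test of single outlying libraries.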

How the results depend on the processing

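No result changed direction under any alternative run, and none of the 28 genes was called between RxraSA and RxraWT, or for an interaction with day, under any of them. The fit with the replicate number as a block called none of the 28 between the forms either, and gave 23, 27 and 24 of the 28 for day 2 against day 0, day 6 against day 2 and day 6 against day 0 (20, 26 and 24 without it). The block raised the number of the 28 called between clones at day 0 from 9 to 14, for the difference between clones in the change to day 2 from 1 to 8, and in the change from day 2 to day 6 from 5 to 12. Without the block, the difference in the change to day 2 had 3 calls in DESeq2, 2 with RLE size factors, 2 with no filter on low counts, 2 when 6 libraries had to reach 1 CPM and 2 without replicate 2 of day 0, and that from day 2 to day 6 had 8 in DESeq2. Leaving out 1 replicate number of 1 clone gave 3 to 11 calls between clones at day 0, 1 to 3 and 3 to 6 for the differences in change, 19 to 21 for day 2 against day 0, 22 to 25 for day 6 against day 2 and 18 to 23 for day 6 against day 0. Without replicate 2 of day 0, the difference in the change from day 2 to day 6 had 7. The cause was not tested. Among all genes, library size alone lowered the share of higher calls from 48.9% to 33.6% at day 2 and from 48.2% to 34.9% at day 6 against day 0. Abca1 at day 0 rests on the fewest counts.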

Other observations

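Dhcr7 and Stard4, a late enzyme of synthesis and a sterol carrier, were each highest in replicate 3 in 12 of the 12 combinations of clone, Rxra form and day, where 2.37% of all genes tested were highest in the same replicate number in all 12. Fdft1 was highest in replicate 1 and Lss in replicate 3 in 11 of the 12, where 7.09% of all genes had a number that was highest in at least 11. These 4 genes were picked from the 28 after their values were seen. The cause was not tested.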
